A study of Mus musculus with 14 samples.

Results

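Mucin-type O-glycans are built in the Golgi by a chain of glycosyltransferases. Described here are 65 genes of 8 families that hold such enzymes, though not every member acts on these glycans. The members were all genes whose symbol on the array's annotation belongs to the Galnt, Gcnt, B3gnt, B3galt, B4galt, St3gal, St6gal (with St6galnac) or Fut families, out of 24675 genes with 1 symbol on the array. Membership was set by symbols alone, but the families were chosen with earlier results of these data known. RNA of sorted mouse crypt cells was measured on 14 arrays, 1 per sample. All mice carried the Lgr5-EGFP-IRES-CreERT2 cassette, in which the promoter of the stem cell receptor Lgr5 drives both EGFP and a Cre recombinase that tamoxifen activates. Wild-type (WT) mice had this cassette alone, and Atg7KO mice had it together with Atg7(fl/fl) alleles, from which Cre can remove Atg7, an enzyme that autophagy requires. Mice of both genotypes were given tamoxifen for 5 days in a row and killed 1 month afterwards, so control cells also carried the cassette and had met the drug. Dissociated crypt cells low in CD24 were sorted by EGFP into a high gate, named in the labels as stem cells, and a low gate, named as transit amplifying progenitors. The groups were WT-High (3 arrays), Atg7KO-High (3 arrays), WT-Low (4 arrays) and Atg7KO-Low (4 arrays). The labels name individual mice, and each sample supplied 1 ng of RNA that was amplified before labelling. The sources used here do not give the ages of the mice, the region of the intestine or which arrays share a mouse. The cassette is known to be silent in part of the crypts, and the EGFP sort takes cells from crypts in which it is active.

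The values are log2 levels that the authors made with RMA, and every difference below is on that log2 scale. Array medians lay between 4.30 and 4.49, and the precision is limited by how many arrays there are, since an array has no read depth. The labels were checked first on the targeted gene and on the gene of the reporter. Atg7 read 6.14 ± 0.23 (SD, n = 3) in Atg7KO-High against 6.79 ± 0.04 (SD, n = 3) in WT-High, and 5.89 ± 0.20 (SD, n = 4) in Atg7KO-Low against 6.91 ± 0.43 (SD, n = 4) in WT-Low. The groups did not overlap in either gate, and the exact two-sided permutation p-values were 0.1 and 0.0286, each the smallest that its design allows. No source used here says which exons were floxed, so the probe set may also read undeleted exons. Lgr5 read 9.02 ± 0.31 (SD, n = 3) in WT-High against 5.50 ± 0.67 (SD, n = 4) in WT-Low, and 9.11 ± 0.12 (SD, n = 3) in Atg7KO-High against 5.79 ± 0.52 (SD, n = 4) in Atg7KO-Low. The exact two-sided permutation p was 0.0571 in each genotype, the smallest possible for 3 against 4. The mean of 5 epithelial markers (Epcam, Cdh1, Krt8, Krt18 and Krt19) was between 9.98 and 10.58 on every array.

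O-glycosylation of mucins starts when a polypeptide GalNAc transferase (the Galnt family) attaches N-acetylgalactosamine to serine or threonine. Galactose or N-acetylglucosamine is then added to form a core, Gcnt enzymes branch the core, B3gnt, B3galt and B4galt enzymes extend the branches, and sialyltransferases and fucosyltransferases cap the ends. In the intestine these glycans make up much of the mass of mucus and of the membrane mucins, and several of the capping and extending enzymes also act on N-glycans and glycolipids. Of the 65 members 48 passed the filter on low values, which asked that 3 or more arrays read the gene no lower than their own 40th percentile. The filter kept 12 of 17 Galnt, 4 of 5 Gcnt, 6 of 8 B3gnt, 3 of 5 B3galt, 7 of 7 B4galt, 5 of 6 St3gal, 5 of 8 St6gal and 6 of 9 Fut genes. The 17 members left out were Galnt13, Galnt14, Galnt15, Galnt17, Galnt18, Gcnt1, B3gnt6, B3gnt8, B3galt1, B3galt5, St3gal5, St6gal2, St6galnac3, St6galnac5, Fut4-ps1, Fut7 and Fut9. Their highest value on any array was 4.00, read for the pseudogene Fut4-ps1, against 40th percentiles of 3.75 to 3.98. Among them were Gcnt1, a core 2 enzyme best known in leukocytes, at 3.03 to 3.14 in the 4 group means, the core 3 synthase B3gnt6 at 3.24 to 3.45, and B3galt5, which builds type 1 chains, at 3.17 to 3.25. Of the 48 tested members, 41 were at or above the percentile on all 14 arrays and 7 on only some of them. Such a gene can pass because of the group in which it is high. B3galt2 passed on its 3 Atg7KO-High arrays alone and St6galnac1 on 4 EGFP high arrays alone, so both are described by their values. Counts of calls are given over the other 46, a choice made after the data were seen. Shares over all genes tested keep the 269 genes that passed within 1 group, gate or genotype alone. Without these, 1.19% instead of 1.22% were called lower in the EGFP high gate in WT, and 0% instead of 0.0063% lower in Atg7KO-High than in WT-High.

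Promoter sequences are shown for the 4 members with the smallest adjusted p between the gates in WT among those that have a promoter in the RefSeq table of build GRCm38.p6, which holds promoters of 47 of the 65 members. Each runs 5′ to 3′ on the gene's own strand, from 250 bases before to 50 bases after an annotated start. All 4 genes had lower means in the EGFP high gate in WT. St3gal4 and St3gal6 passed an adjusted p under 0.05 there, and Galnt5 (adjusted p = 0.0556, limma) and Fut8 (0.0576) did not. Gcnt3 and Galnt12, which also passed in WT, have no promoter in that table. St3gal4 has its start on the minus strand in chr9:35116815-35117114, the first of 2 starts of St3gal6 lies on the minus strand in chr16:58524204-58524503, that of Galnt5 on the plus strand in chr2:57997905-57998204, and the first of 4 starts of Fut8 on the plus strand in chr12:77237854-77238153. Capitals mark a motif.
St3gal4: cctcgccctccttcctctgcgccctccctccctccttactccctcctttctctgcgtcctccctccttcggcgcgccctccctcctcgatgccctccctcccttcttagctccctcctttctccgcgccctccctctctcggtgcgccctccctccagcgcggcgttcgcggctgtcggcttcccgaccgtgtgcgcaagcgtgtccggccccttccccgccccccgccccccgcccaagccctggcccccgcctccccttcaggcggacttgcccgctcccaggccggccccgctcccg
St3gal6: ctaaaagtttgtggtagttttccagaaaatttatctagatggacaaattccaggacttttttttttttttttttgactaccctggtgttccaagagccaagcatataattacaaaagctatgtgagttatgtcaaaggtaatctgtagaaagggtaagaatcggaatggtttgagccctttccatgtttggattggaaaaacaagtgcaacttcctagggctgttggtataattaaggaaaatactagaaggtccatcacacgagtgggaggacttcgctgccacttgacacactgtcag
Galnt5: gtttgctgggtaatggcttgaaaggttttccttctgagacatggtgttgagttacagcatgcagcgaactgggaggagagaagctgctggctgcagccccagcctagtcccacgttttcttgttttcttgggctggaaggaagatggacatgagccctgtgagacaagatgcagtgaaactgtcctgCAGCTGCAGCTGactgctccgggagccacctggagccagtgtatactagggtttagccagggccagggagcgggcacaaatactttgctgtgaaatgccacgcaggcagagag
Fut8: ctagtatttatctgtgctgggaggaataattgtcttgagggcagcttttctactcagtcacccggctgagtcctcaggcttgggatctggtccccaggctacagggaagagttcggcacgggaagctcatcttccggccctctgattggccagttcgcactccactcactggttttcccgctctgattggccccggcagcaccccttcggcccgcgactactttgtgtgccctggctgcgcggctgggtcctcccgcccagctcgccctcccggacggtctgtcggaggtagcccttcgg
Both strands were searched for CTTTGAT (TCF/LEF), TTTATNG (CDX2) and the E boxes CAGCTG and CAGATG, of which CAGCTG reads the same on both strands. Of the 4 windows printed, that of Galnt5 held CAGCTG at 63 and 57 bases before the start and the others held none. Among the further starts, the second of St3gal6 held CAGATG, the third of Fut8 TTTATNG and the fourth of Fut8 CTTTGAT. Over all 32851 promoters of this length the shares with a match were 3.73% for CTTTGAT, 10.9% for TTTATNG, 16.3% for CAGCTG and 17.2% for CAGATG, and among the 67 member promoters 1, 4, 11 and 10 held them. The GC content was 74.0% for St3gal4, 38.7% for St3gal6, 54.3% for Galnt5 and 61.7% for Fut8. These matches are letters in a window, and the arrays did not measure binding.

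The comparison of the gates asks how levels differ between stem cells and their progeny. In WT cells 4 of the 46 members were lower in the EGFP high gate at an adjusted p under 0.05, and 0 were higher (limma, two-sided, Benjamini-Hochberg over 15873 genes). Over all genes tested, 1.22% were called lower and 1.22% higher in this comparison. In Atg7KO cells 12 members were lower and 1, Gcnt7, was higher, against 6.44% and 4.48% of all genes tested. The 4 genes called in WT were St3gal4, Gcnt3, Galnt12 and St3gal6, and all 4 were called lower in Atg7KO cells as well, which is 100% of the WT calls and 33.3% of the Atg7KO calls. Over all genes tested, 74.7% of the genes called lower in WT were called lower in Atg7KO cells, or 14.2% of the latter. In both genotypes more members were lower than higher in the EGFP high gate, 34 of 46 in WT and 31 of 46 in Atg7KO, where 45.3% and 47.9% of all genes tested were lower. The median difference of the 46 members was -0.23 in WT and -0.18 in Atg7KO, beside 0.03 and 0.02 over all genes tested. The groups did not overlap for 13 lower and 1 higher member in WT (6.52% and 9.97% of all genes tested) and for 12 lower and 4 higher members in Atg7KO (11.8% and 10.8%). The WT calls depend on single arrays. Without WT-High-411 there were 0, without WT-Low-409 or WT-High-388 there was 1, and without WT-Low-341, WT-Low-407 or WT-High-412 there were 2. The 12 calls in Atg7KO became 6 without Atg7KO-High-356. Array values were more narrowly spread in Atg7KO-High (SD 1.90 to 1.98 over all values of an array) than in WT-High (1.99 to 2.06), and with this SD as a covariate 3 of the 12 remained, St3gal4, Gcnt3 and Galnt12, where 1.46% of all genes tested were called lower. The 9 calls lost kept their sign, with differences from -1.30 for Galnt5 to -0.47 for Fut4. Fewer cells of a type and less RNA per cell cannot be told apart in such bulk samples.

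**Figure D1:**
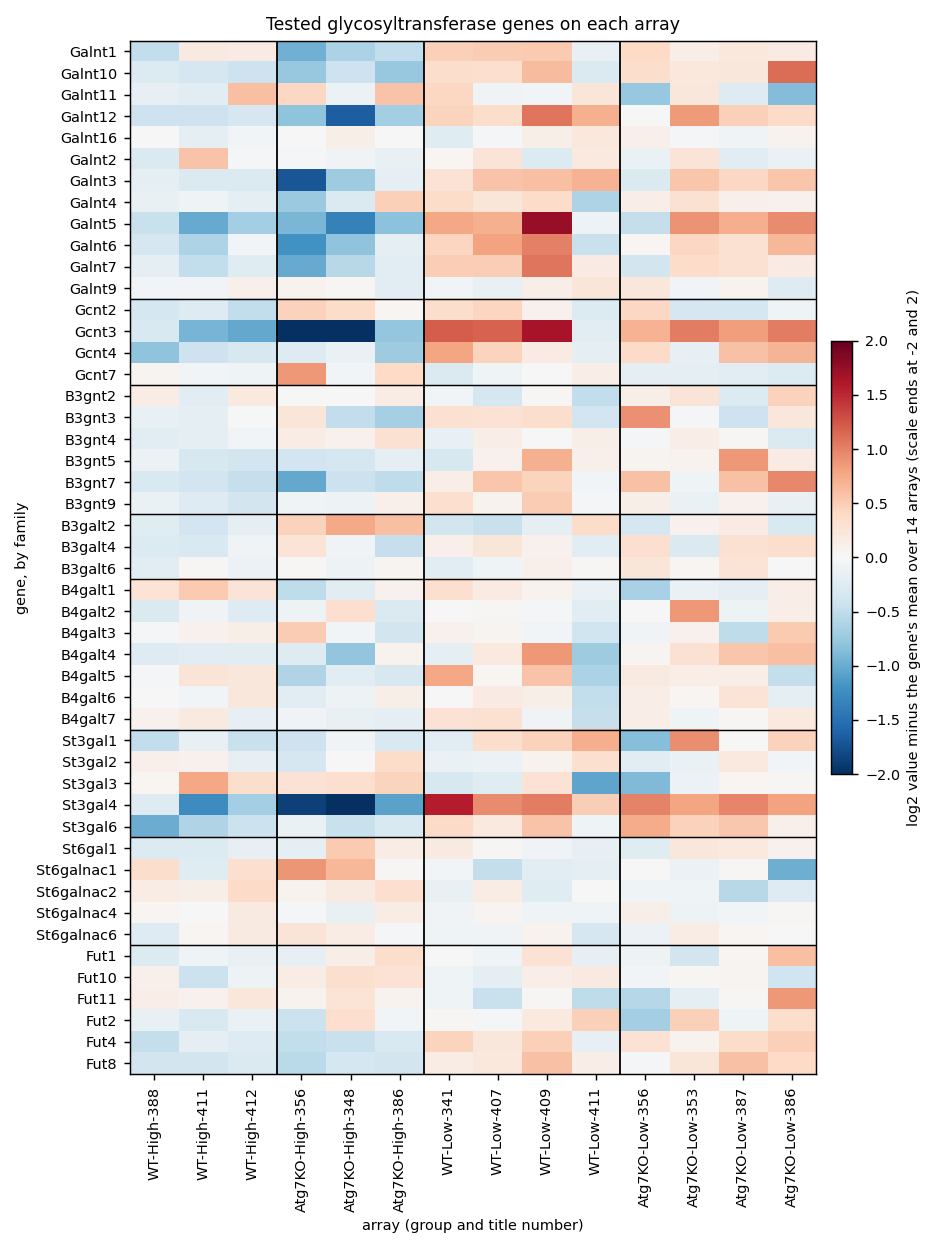
Heat map of the 48 tested members (rows, by family) on the 14 arrays (columns, by group), coloured by the log2 value minus the gene's mean over all arrays, with the colour scale ending at -2 and 2. Gcnt3 and St3gal4 are blue on all 6 EGFP high arrays and red on 7 of the 8 EGFP low arrays for Gcnt3 and on all 8 for St3gal4, and most B4galt and St6gal genes are pale throughout.

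Among the initiating enzymes 11 of 12 tested Galnt genes were lower in the EGFP high gate in WT and 10 of 12 in Atg7KO, with family medians of -0.49 and -0.82. The family median was lower in both genotypes with quantile normalization again (-0.55 and -0.62) and with median centring (-0.47 and -0.92). Galnt12, a transferase that also acts on peptides already carrying a sugar, was called in both. It read 7.54, 7.54 and 7.62 on the WT-High arrays, and 8.39, 8.31, 9.02 and 8.65 on the WT-Low arrays. It read 7.14, 6.30 and 7.28 on the Atg7KO-High arrays, and 7.96, 8.80, 8.42 and 8.33 on the Atg7KO-Low arrays. Every EGFP high array was below every EGFP low array, and the differences were -1.03 (SE 0.25, adjusted p = 0.0417, limma) in WT and -1.47 (SE 0.25, adjusted p = 0.00242, limma) in Atg7KO, or 2.04-fold and 2.77-fold lower. The WT call was lost without any 1 of the 3 WT-High arrays, the 4 WT-Low arrays, Atg7KO-Low-387 or Atg7KO-Low-386, with adjusted p up to 0.157 (limma, without WT-High-411) and differences of -1.12 to -0.88. The Atg7KO call held in all 24 alternatives.

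Galnt5 had the largest mean difference between the gates in this family. It read 5.45, 4.88 and 5.21 in WT-High against 6.66, 6.59, 7.63 and 5.79 in WT-Low, and 4.98, 4.54 and 5.07 in Atg7KO-High against 5.41, 6.78, 6.62 and 6.83 in Atg7KO-Low. The gates did not overlap in either genotype, and Atg7KO-Low-356 and WT-Low-411 were the lowest of their groups. The difference was -1.55 (SE 0.38, adjusted p = 0.0197, limma) in Atg7KO and was called there, and it was -1.49 (SE 0.38, adjusted p = 0.0556, limma) in WT, where it passed without WT-Low-411 (adjusted p = 0.025, limma) or Atg7KO-Low-356 (adjusted p = 0.0241, limma). The Atg7KO call was lost without Atg7KO-High-356 (0.0576), Atg7KO-Low-386 (0.0555) or Atg7KO-High-348 (adjusted p = 0.0846, limma).

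Another 4 Galnt genes were called lower in the EGFP high gate of Atg7KO cells, and in WT their differences had the same sign and did not pass. Galnt10, which adds sugars next to those already placed, read 5.63 ± 0.20 (SD, n = 3) in Atg7KO-High against 6.75 ± 0.43 (SD, n = 4) in Atg7KO-Low, a difference of -1.12, and -0.60 in WT. Galnt1, a widely expressed initiator, read 6.85 ± 0.24 against 7.77 ± 0.12, a difference of -0.92, and -0.39 in WT. Galnt3, known for the O-glycan that protects the hormone FGF23 from cleavage, read 7.35 ± 0.77 against 8.53 ± 0.41, a difference of -1.18, and -0.79 in WT. Galnt6 read 6.62 ± 0.52 against 7.72 ± 0.26, a difference of -1.09, and -0.78 in WT. The adjusted p-values of these 4 in Atg7KO were 0.00852, 0.0123, 0.0187 and 0.0374 (limma), and the difference between genotypes was called for none of them (adjusted p of 0.42 to 0.772, limma). Leaving out 1 array ended the call of Galnt1 (Atg7KO-High-356, adjusted p = 0.0672, limma), of Galnt3 (Atg7KO-High-356, 0.0843 and a difference of -0.76, or Atg7KO-Low-386, 0.0511) and of Galnt6 (Atg7KO-High-356, Atg7KO-High-348, Atg7KO-Low-353, Atg7KO-Low-387 or Atg7KO-Low-386, 0.0614 to 0.167), while Galnt10 kept it in each case. With the array SD as a covariate, Atg7KO differences were -0.50 for Galnt6 and -0.49 for Galnt1, less than those above by over 1.5 times, and -1.07 for Galnt3 and -0.85 for Galnt10. Galnt7, a transferase for peptides that already carry a sugar, was not called at -0.86 (SE 0.24, adjusted p = 0.0728, limma) in WT and -0.72 (SE 0.24, adjusted p = 0.0677, limma) in Atg7KO, where it passed without Atg7KO-High-386 (0.0414), Atg7KO-Low-356 (0.0318) or WT-Low-409 (0.0483). In WT, Galnt6 passed without WT-Low-411 (-1.08, adjusted p = 0.0472, limma). Galnt4 differed by -0.23 and -0.34, with overlapping groups. The remaining 4 tested Galnt genes, Galnt2, Galnt9, Galnt11 and Galnt16, had differences between -0.10 and 0.70 and adjusted p from 0.114 upward (limma), and of these Galnt11 passed in Atg7KO without Atg7KO-Low-353 (0.92, adjusted p = 0.0361, limma).

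Of the branching enzymes Gcnt3 had the largest difference in both genotypes. Gcnt3 is the mucin-type enzyme that makes core 2 and core 4 branches. It read 7.96, 7.33 and 7.24 in WT-High against 9.46, 9.44, 9.91 and 8.04 in WT-Low. In Atg7KO-High it read 5.87, 6.25 and 7.49, against 8.95, 9.28, 9.09 and 9.27 in Atg7KO-Low. The gates did not overlap in either genotype, with WT-High-388 at 7.96 and WT-Low-411 at 8.04 the closest pair. The differences were -1.70 (SE 0.40, adjusted p = 0.0402, limma) in WT and -2.61 (SE 0.40, adjusted p = 0.00159, limma) in Atg7KO, or 3.26-fold and 6.12-fold lower in the EGFP high gate. The Atg7KO call held in all 24 alternatives. The WT call was lost without any 1 of the 3 WT-High arrays, WT-Low-341, WT-Low-407, WT-Low-409, Atg7KO-High-348 or Atg7KO-Low-353, with adjusted p up to 0.172 (limma) and differences from -1.93 to -1.47.

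Gcnt4, a further core 2 enzyme, had the same sign in both genotypes and was not called in either. Its differences were -0.81 (SE 0.25, adjusted p = 0.114, limma) in WT and -0.74 (SE 0.25, adjusted p = 0.0723, limma) in Atg7KO, where it passed without Atg7KO-Low-353 (adjusted p = 0.0274, limma) or WT-Low-411 (0.0479). In an average over both genotypes, added after the data were seen, it was called lower at -0.77 (adjusted p = 0.011, limma). Gcnt2, which branches poly-lactosamine chains to form the I antigen, differed by -0.51 in WT and by 0.38 in Atg7KO, and neither passed. Gcnt7 was called higher in Atg7KO cells of the high gate. It read 5.41, 4.48 and 4.94 in Atg7KO-High against 4.37, 4.34, 4.32 and 4.26 in Atg7KO-Low, with a difference of 0.62 (SE 0.18, adjusted p = 0.0427, limma), and 0.03 in WT. The 3 EGFP high values were all above the low gate, but spread over more than the gap, and the call held in only 6 of 23 alternatives. It was lost without any 1 of the WT-High arrays, of the Atg7KO-Low arrays, WT-Low-407, WT-Low-409, Atg7KO-High-386 (adjusted p = 0.078, limma) or Atg7KO-High-356 (0.39, adjusted p = 0.2, limma).

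Among the extension enzymes, the family medians between the gates in WT were -0.33 for B3gnt and 0.02 for B4galt, against -0.66 for Gcnt. In Atg7KO they were -0.28 and -0.20, against -0.18 for Gcnt. B3gnt7, which extends poly-lactosamine and keratan sulfate chains, was called lower in the EGFP high gate of Atg7KO cells. It read 3.94, 4.52 and 4.45 in Atg7KO-High against 5.54, 4.87, 5.55 and 5.92 in Atg7KO-Low, and 4.65, 4.57 and 4.49 in WT-High against 5.09, 5.51, 5.40 and 4.90 in WT-Low. No EGFP high array reached the low gate, and the differences were -1.17 (SE 0.23, adjusted p = 0.00591, limma) in Atg7KO and -0.66 (SE 0.23, adjusted p = 0.169, limma) in WT. The Atg7KO call held without any single array and was lost only with the array SD as a covariate (adjusted p = 0.0788, limma). B3gnt3, which extends core 1, differed by -0.25 and -0.47 without a call. B3galt2, which adds galactose to N-acetylglucosamine, read 4.00, 4.31 and 4.15 in Atg7KO-High against 3.20, 3.64, 3.72 and 3.24 in Atg7KO-Low, and all 11 arrays outside Atg7KO-High were below the filter's percentile. No test of it is given, since without any 1 of the Atg7KO-High arrays the gene did not pass the filter. In the B4galt family of galactosyltransferases, 0 of 7 genes were called in either genotype. Differences ran from -0.27 to 0.24 in WT and from -0.70 to 0.02 in Atg7KO, and adjusted p from 0.14 upward (limma).

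Of the 5 tested St3gal sialyltransferases 2 were called lower in each genotype and 0 higher. St3gal4 and St3gal6, which add sialic acid to the terminal galactose of lactosamine chains and take part in making selectin ligands, were called lower in the EGFP high gate in both genotypes. St3gal4 read 7.29, 6.28 and 6.86 in WT-High against 9.10, 8.48, 8.56 and 8.03 in WT-Low. In Atg7KO-High it read 5.67, 5.07 and 6.47, against 8.54, 8.33, 8.51 and 8.35 in Atg7KO-Low. All 6 EGFP high arrays lay below all 8 EGFP low arrays, and the 4 Atg7KO-Low values lay close together. The differences were -1.73 (SE 0.31, adjusted p = 0.0102, limma) in WT and -2.70 (SE 0.31, adjusted p = 0.000298, limma) in Atg7KO, or 3.32-fold and 6.49-fold lower. The WT call was lost without WT-High-411 (-1.47, adjusted p = 0.0625, limma) and held in the other 23 of 24 alternatives, and the Atg7KO call held in all 24.

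St3gal6 read 6.73, 7.12 and 7.29 in WT-High against 8.10, 7.92, 8.28 and 7.63 in WT-Low. It read 7.59, 7.27 and 7.41 in Atg7KO-High against 8.46, 8.17, 8.25 and 7.83 in Atg7KO-Low. The gates did not overlap within a genotype, and the differences were -0.94 (SE 0.19, adjusted p = 0.022, limma) in WT and -0.76 (SE 0.19, adjusted p = 0.0234, limma) in Atg7KO. The WT call was lost without WT-High-388 (-0.78, adjusted p = 0.106, limma), WT-High-411 (0.0748) or WT-Low-409 (0.067), and the Atg7KO call without Atg7KO-High-348 (adjusted p = 0.0941, limma), Atg7KO-High-386 (0.0509), Atg7KO-Low-356 (0.0561) or Atg7KO-Low-387 (0.052). St3gal3 had the opposite sign, 0.72 in WT and 0.59 in Atg7KO, and was called in neither (adjusted p = 0.237 and 0.208, limma). Of the St6gal and St6galnac genes 4 besides St6galnac1 were tested, with medians of 0.10 in WT and 0.11 in Atg7KO and 0 called. St6galnac2, which adds sialic acid to the first sugar of core 1, was higher by 0.28 and 0.44 (adjusted p = 0.428 and 0.0791, limma). St6galnac1, the enzyme that makes sialyl-Tn, read 3.88 ± 0.34 (SD, n = 3) in WT-High and 4.26 ± 0.45 (SD, n = 3) in Atg7KO-High, against 3.50 ± 0.18 and 3.47 ± 0.48 (SD, n = 4 each) in the low gate, where all 8 arrays were below the filter's percentile. In the average over both genotypes St3gal3 (0.65) and St6galnac2 (0.36) were the 2 members called higher, against 5.75% of all genes tested, and 14 were called lower, against 6.24%.

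Of 6 tested fucosyltransferase genes 5 in WT and 3 in Atg7KO had negative differences, and 0 and 2 were called lower. Fut8, which adds the core fucose of N-glycans, read 7.74, 7.74 and 7.82 in WT-High against 8.26, 8.33, 8.70 and 8.23 in WT-Low, and 7.58, 7.76 and 7.74 in Atg7KO-High against 8.09, 8.35, 8.69 and 8.51 in Atg7KO-Low. All EGFP high values were below all EGFP low values, with a difference of -0.72 (SE 0.16, adjusted p = 0.0118, limma) in Atg7KO and -0.61 (SE 0.16, adjusted p = 0.0576, limma) in WT. Fut4, which makes the Lewis x structure, differed by -0.71 (SE 0.17, adjusted p = 0.0154, limma) in Atg7KO and by -0.56 (SE 0.17, adjusted p = 0.1, limma) in WT. The Atg7KO calls were lost without Atg7KO-High-356 for both genes (0.0563 for Fut8 and 0.064 for Fut4) and without Atg7KO-High-348 for Fut4 (adjusted p = 0.0564, limma). With the array SD as a covariate Fut8 differed by -0.71 and Fut4 by -0.47 in Atg7KO, and neither passed. In WT, Fut4 passed without WT-Low-411 (adjusted p = 0.0288, limma) and Fut8 without Atg7KO-Low-356 (0.0413) or Atg7KO-Low-387 (0.0498). Fut2, the enzyme of secretor-type fucosylation in mucus, read 4.86 ± 0.10 (SD, n = 3) in WT-High and 5.23 ± 0.23 (SD, n = 4) in WT-Low, a difference of -0.36 that did not pass (adjusted p = 0.554, limma), and -0.07 in Atg7KO. Fut1, its relative, was at or above the percentile on 3 arrays and differed by -0.18 and 0.06.

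**Figure D2:**
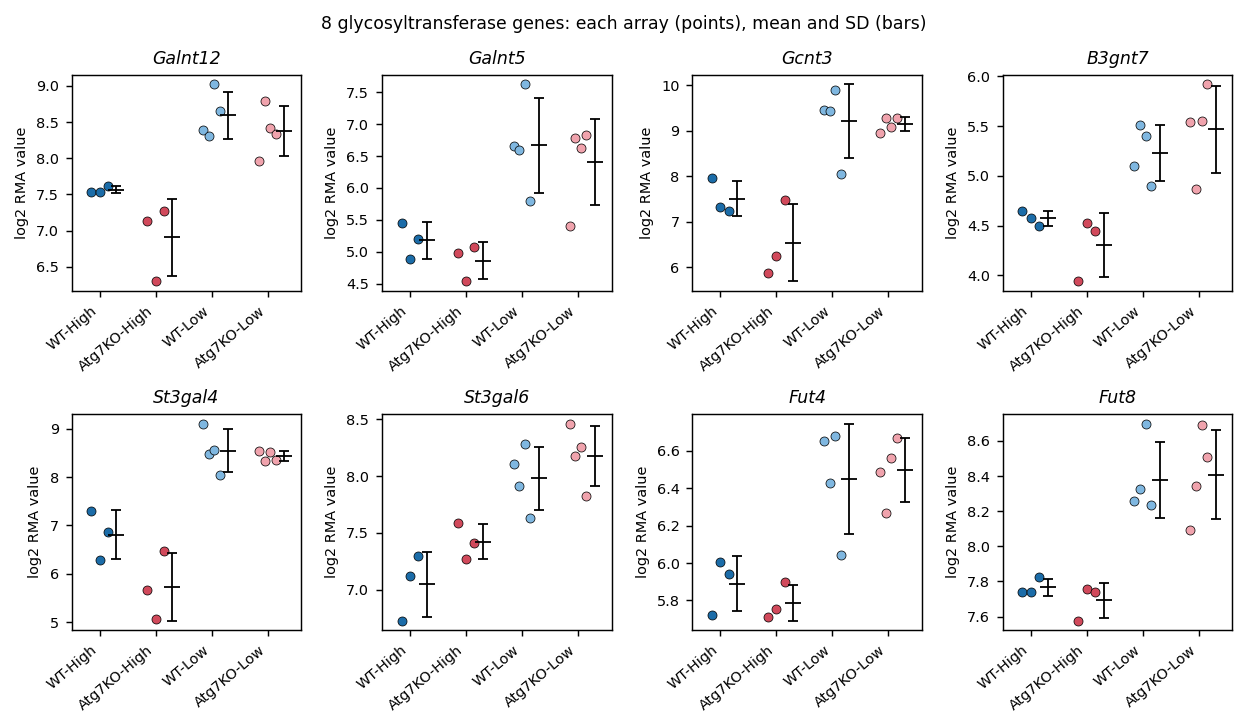
Log2 values of 8 members on each array (points, 1 panel per gene with its own axis) with the mean and SD of each group (bars). In each panel every EGFP high array lies below every EGFP low array of the same genotype. For St3gal4 and Gcnt3 the Atg7KO-High points reach the lowest values, 5.07 and 5.87. The 8 are a chosen part of the members called lower in Atg7KO. Those not shown are Galnt1, Galnt6 and Galnt10, whose gates overlapped in WT, and Galnt3, whose gates overlapped in Atg7KO.

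The differences of both genotypes can be set side by side, since they rest on separate arrays apart from the shared estimate of the spread. The sign was the same for 34 of the 48 tested members (70.8%), with 26 lower and 8 higher in both, and for 56.6% of all genes tested. St6galnac1 is among the 8, but it passed the filter through EGFP high arrays alone, which favours a higher sign in both genotypes. B3galt2 passed through its Atg7KO-High arrays alone, which favours a higher sign in Atg7KO, and its signs differed. The signs of these genes therefore cannot show whether the genotypes agree. St3gal4, Gcnt3 and Galnt12 differed more in Atg7KO than in WT, by -0.96 (SE 0.44), -0.91 (SE 0.57) and -0.44 (SE 0.35). The tests of these 3 differences between genotypes gave adjusted p = 0.346, 0.467 and 0.566 (limma).

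**Figure D3:**
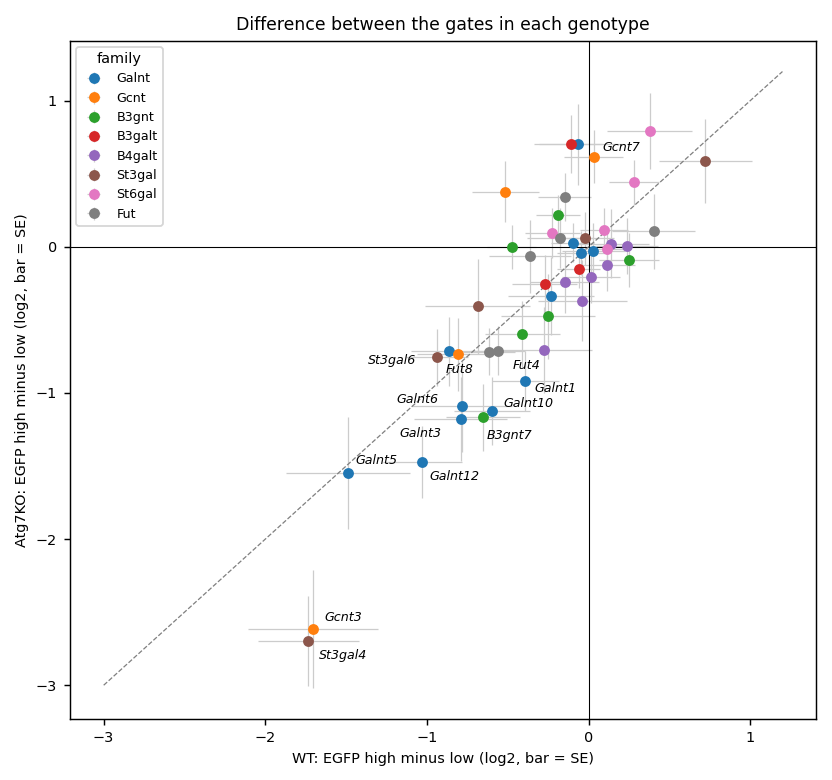
Difference between the gates (EGFP high minus low, log2) in WT (horizontal) and Atg7KO (vertical) for the 48 tested members, coloured by family, with SE bars and a dashed line of equality. The 12 members called lower in Atg7KO and Gcnt7, called higher, are named, St3gal4 and Gcnt3 lie farthest below 0 on both axes, and Gcnt7 lies at 0.03 on the horizontal and at 0.62 on the vertical axis.

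Other genes of the pathway were described from lists of their own. C1galt1, the core 1 synthase, and C1galt1c1, its chaperone, were both lower in the EGFP high gate. C1galt1c1 fell by 0.98 on the log2 scale (SE 0.21, adjusted p = 0.0267, limma) in WT and by 1.27 (SE 0.21, adjusted p = 0.00241, limma) in Atg7KO, and C1galt1 differed by -1.05 (SE 0.29, adjusted p = 0.0728, limma) and -1.36 (SE 0.29, adjusted p = 0.00917, limma). Of 22 tested genes for nucleotide sugars and their Golgi transport, 1 was called lower in WT and 9 in Atg7KO, with 0 higher in either. Negative differences numbered 18 in WT and 19 in Atg7KO, and the difference between genotypes was called for 0. Over all genes tested, 1.22% were called lower in WT and 6.44% in Atg7KO, and 1.22% and 4.48% higher. Gfpt1, the entry enzyme of the hexosamine pathway, was called in both at -1.11 and -1.58, and Nans, a sialic acid synthase, in Atg7KO at -1.54, against -0.42 in WT. The GDP-fucose transporter Slc35c1 was called in Atg7KO at -0.94 and Uap1, which makes UDP-N-acetylglucosamine, at -0.91. Among 8 tested mucins Muc2, the gel-forming mucin of goblet cells, fell by 1.62 in WT (SE 0.38, adjusted p = 0.0383, limma) and fell by 2.15 in Atg7KO (SE 0.38, adjusted p = 0.00318, limma). The membrane mucin Muc4 was called higher in Atg7KO, by 0.78, and differed by 0.49 in WT, while the membrane mucin Muc13 differed by -0.09 and -0.18 and was not called. Of 7 sulfotransferases only Chst4, which sulfates N-acetylglucosamine, was called, at -1.92 in WT and -2.84 in Atg7KO. Of 11 other terminal transferases only B4galnt3 was called, higher by 0.75 in Atg7KO.

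Markers of differentiated cell types moved with the gate too. Over all genes tested, 1.22% were called lower in the EGFP high gate in WT and 6.44% in Atg7KO, and 1.22% and 4.48% higher. All 14 goblet markers were lower in the EGFP high gate in both genotypes, with 10 called in WT and 14 in Atg7KO. Their mean level was 8.75 to 9.24 in WT-High and 7.21 to 9.07 in Atg7KO-High, against 10.39 to 10.89 in WT-Low and 9.94 to 10.53 in Atg7KO-Low. Of 12 enteroendocrine markers 4 were called lower in WT and 7 in Atg7KO, with means of 6.37 to 7.02 and 5.79 to 7.47 in the high gate against 7.79 to 8.56 and 7.64 to 8.78 in the low gate. Enterocyte markers were called lower for 0 of 14 in WT and 7 of 14 in Atg7KO (means 7.52 to 8.68 and 7.39 to 7.57 against 8.33 to 8.90 and 8.04 to 9.24), and Paneth markers for 1 and 6 of 13 (8.91 to 9.84 and 7.56 to 8.70 against 9.25 to 10.65 and 8.87 to 9.77). In WT 11 of 14 enterocyte and 11 of 13 Paneth markers had negative differences, against 14 and 12 in Atg7KO. The difference between genotypes was called for 0 markers of these lists. Of 7 tested leukocyte and 6 tested stromal and endothelial markers 0 were called, and their means on any array lay between 3.90 and 4.48. Tuft markers had 1 of 7 called in each direction in Atg7KO and 0 in WT, and epithelial markers 2 of 5 called lower in Atg7KO and 0 in WT. Of 15 Lgr5 stem cell markers 14 in WT and 12 in Atg7KO were called higher. The part of these markers' cells in the differences of the glycosyltransferases was not tested.

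**Figure D4:**
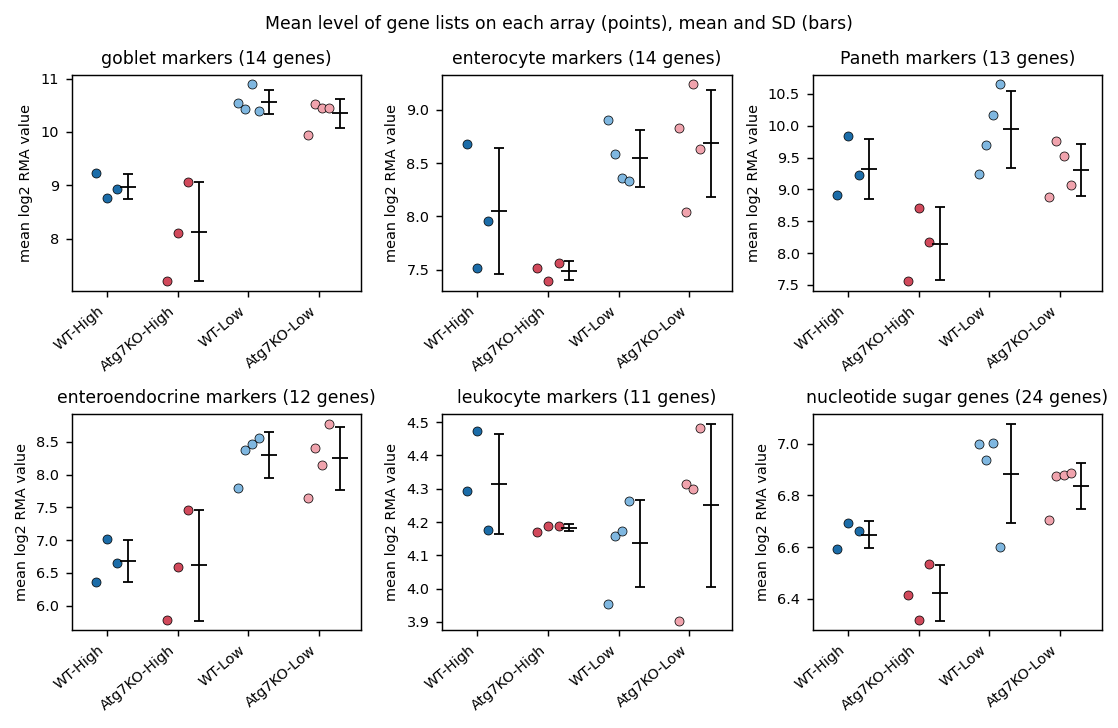
Mean log2 level of 5 marker lists and of the nucleotide sugar genes on each array (points), with the mean and SD of each group (bars) and an axis of its own in each panel. Goblet markers lie at 10.39 to 10.89 in WT-Low and 7.21 to 9.07 in Atg7KO-High, where Atg7KO-High-356 is lowest, while leukocyte markers stay between 3.90 and 4.48.

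The comparison of genotypes asks what loss of Atg7 changes within a gate. In the EGFP high gate 0 of the 46 members were called (limma, adjusted over 15873 genes), where 0.0063% of all genes tested were called in each direction. At an unadjusted p under 0.05 there were 5 higher and 5 lower members, against 5.99% and 9.88% of all genes tested. The groups did not overlap for 5 higher and 3 lower members, against 10.2% and 15.2%. Over the 46 members the signs were 18 higher and 28 lower with a median of -0.04, and the median of all genes tested was -0.03. With B3galt2 and St6galnac1, which passed the filter through EGFP high arrays alone, the signs of the 48 were 20 higher and 28 lower. The counts over 48 depend on the scaling. Quantile normalization again gave 28 higher and 20 lower. Median centring gave 17 higher and 31 lower, and moved the median of all genes tested to -0.14. The Atg7KO-High arrays in this comparison also enter the gate comparison in Atg7KO cells, so the 2 sets of values are not independent.

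The lowest differences in Atg7KO-High belonged to 2 of the enzymes that were low in the high gate. St3gal4 was 5.73 ± 0.70 (SD, n = 3) in Atg7KO-High and 6.81 ± 0.51 (SD, n = 3) in WT-High, with a difference of -1.08 (SE 0.33, adjusted p = 0.181, limma). The groups overlapped through Atg7KO-High-386 at 6.47 and WT-High-411 at 6.28. Gcnt3 was 6.54 ± 0.85 against 7.51 ± 0.39 (SD, n = 3 each), with a difference of -0.97 (SE 0.43, adjusted p = 0.297, limma). Here too Atg7KO-High-386 lay within the WT-High values, and Atg7KO-High-356 and Atg7KO-High-348 lay below them. The Gcnt3 difference was -0.64 without Atg7KO-High-356, -1.45 without Atg7KO-High-386 and -0.14 with the array SD as a covariate. Galnt12 differed by -0.66 (SE 0.26, adjusted p = 0.259, limma), with 7.14, 6.30 and 7.28 below the WT-High values of 7.54 to 7.62, and by -0.36 without Atg7KO-High-348. Galnt1 differed by -0.64 (SE 0.22, adjusted p = 0.208, limma), and by -0.13 with the array SD as a covariate. Of the family 10 of the 12 tested Galnt genes had negative differences, with a family median of -0.30, -0.19 with quantile normalization again and -0.40 with median centring. Markers of several cell types had negative differences beside them, with 0 called in each list. These were 14 of 14 goblet markers (median -0.91), 12 of 13 Paneth markers (-0.64), 14 of 14 enterocyte markers (-0.52) and 5 of 5 epithelial markers (-0.22), while 6 of 12 enteroendocrine markers (0.01) and 5 of 15 Lgr5 stem cell markers (0.05) did. Genes of nucleotide sugars and transport were lower for 19 of 22, with a median of -0.28 and 0 called. The part of these lists in the Galnt, Gcnt3 and St3gal4 values was not tested.

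B4galt1, the lactosamine-building galactosyltransferase, was lower in Atg7KO in both gates without passing. It read 7.34, 7.58 and 7.32 in WT-High against 6.56, 6.86 and 7.15 in Atg7KO-High, and 7.40, 7.23, 7.13 and 6.93 in WT-Low against 6.42, 6.93, 6.86 and 7.19 in Atg7KO-Low. The groups did not overlap in the high gate and overlapped in the low gate, with differences of -0.56 (SE 0.20, adjusted p = 0.231, limma) and -0.32 (SE 0.18, adjusted p = 0.742, limma), and with the array SD as a covariate of -0.25 in the high gate. The average over both gates, added after the data were seen, was -0.44 (adjusted p = 0.363, limma), and 0 members were called in it, against 0.0063% of all genes higher and 0.0189% lower.

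The 5 members with positive differences in Atg7KO-High at an unadjusted p under 0.05 were Gcnt2, Gcnt7, St6gal1, Fut10 and B3gnt4. B3galt2, for which no test is given, read 3.30, 3.16 and 3.37 in WT-High, below the filter's percentile, against 4.00, 4.31 and 4.15 in Atg7KO-High, just above it. Gcnt2 read 4.15, 4.25 and 4.01 in WT-High against 4.96, 4.86 and 4.54 in Atg7KO-High, a difference of 0.65 (SE 0.22, adjusted p = 0.208, limma). The groups did not overlap, and in the low gate Gcnt2 had the opposite sign, at -0.24. St6gal1, which caps N-glycans with sialic acid, differed by 0.40, Gcnt7 by 0.43, Fut10 by 0.39 and B3gnt4 by 0.34, with adjusted p from 0.284 to 0.309 (limma). With array weights Gcnt2 passed as higher and Galnt1 and St3gal4 as lower in the EGFP high gate, where 1.5% of all genes tested were called higher and 2.93% lower. That fit leans on 1 array, since the weight was 3.27 for WT-High-412, against 0.96 for WT-High-388 and 1.44 for WT-High-411.

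In the EGFP low gate 0 of the 46 members were called (limma), against 0.0063% of all genes tested called higher and 0% lower. At an unadjusted p under 0.05 there were 0 higher members and 1 lower member, Galnt11, against 3.86% and 3.4% of all genes. Galnt11 read 5.31, 4.83, 4.84 and 5.14 in WT-Low against 4.14, 5.12, 4.64 and 4.02 in Atg7KO-Low, a difference of -0.55 (SE 0.25, adjusted p = 0.688, limma), and the groups overlapped. The groups did not overlap for 0 members in either direction, against 1.71% and 1.69%. Over the 46 members the signs were 23 higher and 23 lower with a median of 0.01, beside 0.00 over all genes. St3gal4, at 8.43 ± 0.11 (SD, n = 4) against 8.54 ± 0.44 (SD, n = 4), differed by -0.11 (SE 0.29), and Gcnt3, at 9.15 ± 0.16 against 9.21 ± 0.81, by -0.06 (SE 0.37).

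**Figure D5:**
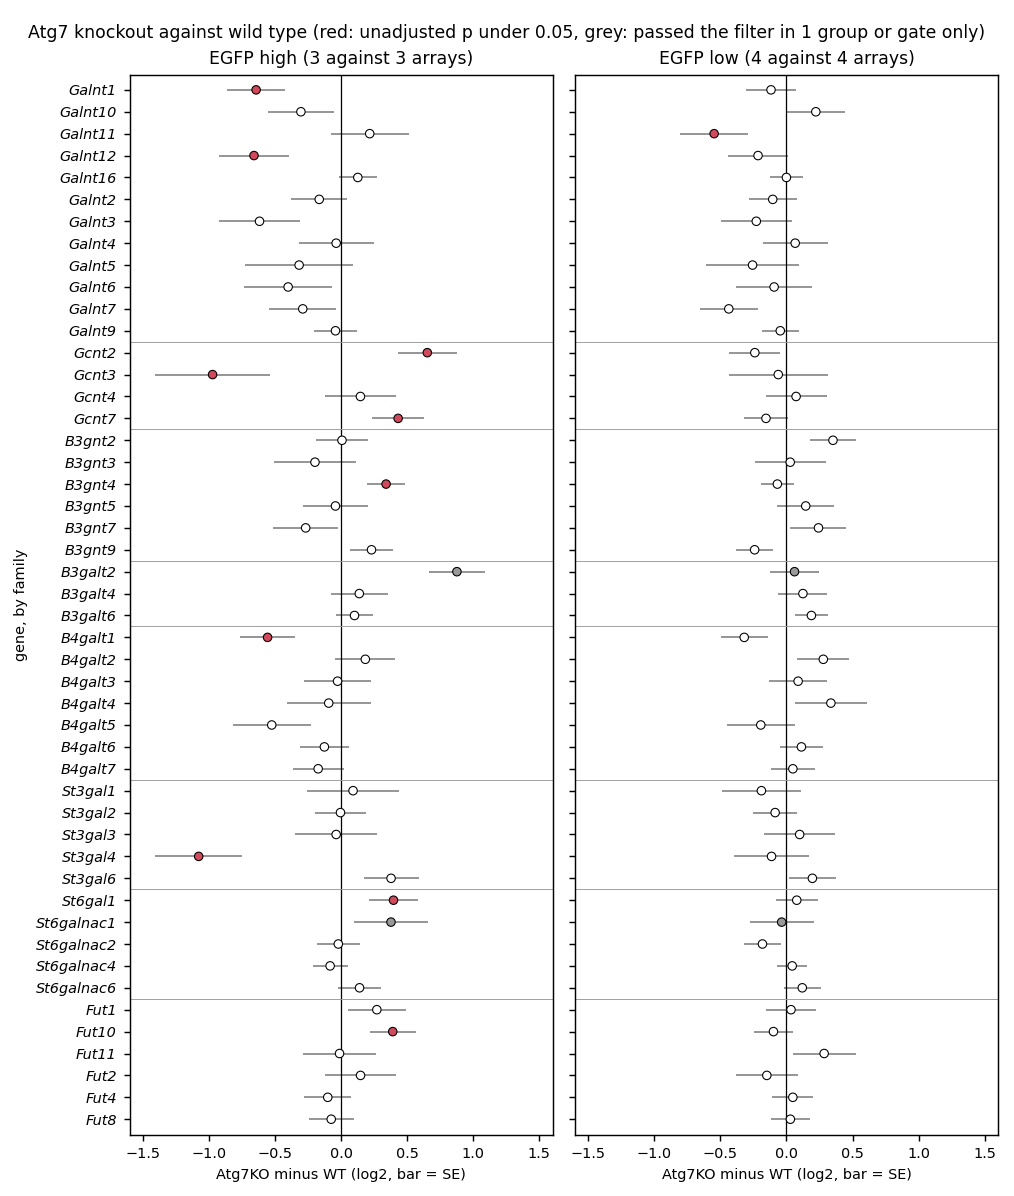
Atg7KO minus WT (log2, bars are the SE) for the 48 tested members by family in the EGFP high gate (left) and the EGFP low gate (right), with red points where the unadjusted p was under 0.05 and grey points for B3galt2 and St6galnac1, which passed the filter in 1 group or gate alone. On the left 10 points are red, from -1.08 for St3gal4 to 0.65 for Gcnt2, and on the right only Galnt11 at -0.55.

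The difference of the Atg7KO effect between the gates was called for 0 of the 46 members (limma), against 0.0063% of all genes in either direction. At an unadjusted p under 0.05 there were 4 members, 3 with a positive and 1 with a negative value, against 14% of all genes tested in either direction. They included Gcnt2 (0.89, SE 0.30, adjusted p = 0.255, limma) and St3gal4 (-0.96, SE 0.44, adjusted p = 0.346, limma). These p-values do not show that the gates respond alike.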

How the data were processed

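RNA of 14 sorted samples was read on Affymetrix Mouse Gene 2.0 ST arrays. The deposited log2 values, 1 per probe set and array, were made by the authors by RMA in Affymetrix Expression Console, according to the submitters' processing notes. This method corrects background, quantile normalizes and summarises probes, and it can narrow large differences. Tool versions, the probe set definition and the genome build were not given in the sources used here. Of 25429 probe sets 24675 have 1 symbol in the platform annotation and 754 have none and were left out.

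Group means over all 14 arrays were fitted with limma 3.58.1 (lmFit, contrasts.fit, eBayes) in R 4.3.3 for the 15873 genes that 3 or more arrays read no lower than their own 40th percentile (residual degrees of freedom 10, prior 4.54). P-values are two-sided, adjusted by Benjamini-Hochberg over these genes, and called under 0.05. The fit was tested on simulated data. Atg7 and Lgr5 were tested by exact permutation (scipy 1.17.1). Alternatives changed 1 setting at a time (filter, normalization, scaling, prior, weights, covariate, block, groups or arrays).

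Members follow from symbols. Named are all called members, 20 with a known intestinal role, the smallest p per family in each genotype comparison, and from each other list up to 4 called genes or the 2 smallest p. Members and lists were chosen with earlier results of these data known. Muc13 was named after its values were seen. Title numbers were not used to pair samples.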

Additional observations from a re-analysis of the deposited data

Results flagged for a closer look

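Among the 68 groups of 4 arrays examined for 34 named members, 7 had 1 array far from the other 3, where chance alone gives about 1 in 20. WT-Low-411 was the lowest WT-Low array for Galnt1 (7.40, the others 8.02 to 8.06), Galnt4 (6.98, the others 7.85 to 7.96) and B3gnt3 (8.08, the others 8.76 to 8.81). Atg7KO-Low-356 was the lowest Atg7KO-Low array for Galnt3 (7.92, the others 8.64 to 8.78) and Galnt5 (5.41, the others 6.62 to 6.83). Atg7KO-Low-386 was the highest for Galnt10 (7.39, the others 6.49 to 6.63) and the lowest for St6galnac1 (2.75, the others 3.63 to 3.76). WT-Low-411 is 1 of the 2 arrays with the narrowest spread of values (SD 1.90). No difference of the Atg7KO effect between the gates passed for any member.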

How the results depend on the processing

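The counts of called members, here over all 48 tested, moved with several settings, and in the alternatives run no called value reversed its sign. The 4 WT members called lower in the EGFP high gate became 2 with no filter, 2 with median centring, 7 with quantile normalization again, 7 without the 2 narrowest arrays and 15 with array weights, and ranged from 0 to 6 when 1 sample was left out. Averaged over both genotypes, a setting chosen after seeing the data, 14 were called lower and 2 higher. The 12 Atg7KO members called lower became 3 with the array SD as a covariate and ranged from 6 to 13 when 1 sample was left out. Quantile normalization again ended the Atg7KO calls of Fut8 (adjusted p = 0.0559, limma) and St3gal6 (0.0649), and it called St6galnac2 higher. Without the 2 narrowest arrays those of Galnt3 (adjusted p = 0.0767, limma) and Galnt6 (0.0531) were lost. Gcnt7, called higher in Atg7KO, lost its call with quantile normalization again, median centring, array weights or only the 2 groups in the fit. The call was also lost without the 2 narrowest arrays or with the array SD as a covariate, and it held in 6 of 23 alternatives. B3galt2 passed the filter on its Atg7KO-High arrays alone, so its calls are not counted here. For Atg7KO against WT in the EGFP high gate array weights called Gcnt2 higher and Galnt1 and St3gal4 lower. The weights ran from 0.37 for WT-Low-411 to 3.27 for WT-High-412. When 1 sample was left out, the count for Atg7KO against WT was 0 in both gates. With the title number as a random replicate block (correlation 0.0732) 4 members in WT and 12 in Atg7KO were called lower, as without it. Arrays sharing a title number had correlations of 0.11, 0.18 and -0.04 between their deviations from the group means. The highest correlations with an array of another number were 0.04, -0.03 and 0.14, in the same order. Only the last shared number thus gave a lower value than unlike numbers did. So few values do not settle whether a number names a mouse. The sources used here do not give which arrays share a mouse, so the numbers were not taken as pairs. Among single members, here with B3galt2 and St6galnac1, leaving out 1 sample ended a call 52 times, gave one 13 times and changed nothing 780 times. The other alternatives ended 30, gave 27 and left 522. The cause of these changes was not tested.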
